A study of Mus musculus with 8 samples.

Results

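The transcripts described here encode subunits of the mitochondrial respiratory chain and ATP synthase in mouse liver. Their genes were taken by symbol from the array's platform annotation, as probe sets with 1 symbol of the Nduf (complex I), Sdh (complex II), Uqcr and Cyc1 (complex III), Cox4 to Cox8 (complex IV) or Atp5 (complex V) families. This gave 99 probe sets of 79 genes among the 19540 genes measured, with 33 genes in complex I, 4 in complex II, 9 in complex III, 17 in complex IV and 16 in complex V. Genes with several probe sets are represented by the brightest, by mean over the 8 arrays. The symbols include Ndufa4, now counted with complex IV, its paralog Ndufa4l2, and Cox7a2l, a factor that joins respiratory complexes rather than a catalytic part.

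Affymetrix arrays were hybridised with RNA from the livers of 4 WT and 4 HNF6KO samples, 8 arrays in all. All mice were male, of strain C57B/6 and aged 12 weeks, fed normal chow under a light and dark schedule. They were sampled at ZT10, given as 5 pm, and no other treatment is named. HNF6, encoded by Onecut1, is a homeodomain transcription factor of hepatocytes and bile duct cells, and the series title places it beside the clock repressor Rev-erba in hepatic lipid metabolism. The sources used here do not say how HNF6 was depleted, in which cells, or whether each array had an animal of its own. Tests therefore cover the spread between arrays, which may be technical. The question asked here is whether transcripts of the respiratory chain differ between HNF6KO and WT livers.

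The respiratory chain carries electrons from NADH (through complex I) and from succinate (through complex II) to ubiquinone, then through complex III and cytochrome c to complex IV, where oxygen is reduced. Complexes I, III and IV pump protons across the inner mitochondrial membrane, and ATP synthase (complex V) uses their return to make ATP. Most subunits are encoded in the nucleus and a few in mitochondrial DNA, so 2 genomes must supply each complex except complex II. Hepatocytes are rich in mitochondria and use this chain to reoxidise the NADH that fatty acid oxidation and the citric acid cycle produce.

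The deposited values read as log2 expression, with array medians of 6.89 to 6.97, and precision is limited by 4 arrays per group. Onecut1 itself fell on the HNF6KO arrays, which all lay under the WT range, with a log2 change (HNF6KO minus WT) of -1.32 ± 0.18 (SE, limma adjusted p = 0.0273). Hepatocyte markers (8 of 10 measured) averaged 13.17 to 13.27 in WT and 13.14 to 13.31 in HNF6KO, while markers of cholangiocytes, lymphocytes, and muscle or brown fat averaged 5.81 to 6.70 on all arrays. Kupffer cell markers (9 of 10 measured) ranged from 7.63 to 8.94 in WT and from 7.71 to 9.35 in HNF6KO. Markers of sinusoidal endothelial cells (8 measured) ranged from 8.41 to 9.19 and from 8.44 to 9.33, and those of stellate cells (8 measured) from 8.27 to 8.77 and from 8.31 to 8.77. Of 9 erythroid markers 2 were measured: Alas2, a heme synthesis enzyme, lay at 9.70 to 10.02 in WT and 8.39 to 9.32 in HNF6KO (change -0.98 ± 0.19, adjusted p = 0.0925), while Slc4a1, an anion exchanger of red cells, overlapped between groups (-0.03 ± 0.08). The part of these markers in the values of the subunit genes was not tested. In such bulk tissue, fewer cells of a type and less RNA per cell cannot be told apart.

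None of the subunit genes passed the test between HNF6KO and WT, and every difference was small. Of 79 genes, 0 had an adjusted p under 0.05 (limma, Benjamini-Hochberg over all genes), against 0.399% of all genes. The smallest adjusted p was 0.150, and the log2 changes ran from -0.20 to 0.24, or from 1.15-fold lower to 1.18-fold higher. The 95% intervals of all 79 changes lay between -0.39 and 0.44, and each of the 79 excluded a 1.5-fold difference in either direction.

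Within these narrow bounds more subunit genes lay above 0 than below it. The change was above 0 for 55 genes and below 0 for 24, so 69.6% lay above 0, against 42.6% of all genes. With an unadjusted p under 0.05, 15 genes were higher (19.0%, against 4.3% of all genes) and 2 were lower (2.53%, against 5.21%). Arrays 1 and 2 alone gave 5 higher genes (with 3.10% of all genes higher), and arrays 3 and 4 alone gave 13 (with 8.62%). The 4 HNF6KO arrays lay above all 4 WT arrays for 12 genes (15.2%, against 2.45% of all genes) and below them for 1 (Ndufa7, against 3.21%). Most subunit genes are bright, with 57 of 79 at or above the 90th percentile of level. Among the 2567 genes at least as bright as the lower quartile of the subunit genes, 8.69% were higher and 9.93% lower at an unadjusted p of 0.05, 47.3% lay above 0, and 5.45% had all HNF6KO arrays above all WT arrays. The median change over the 79 genes was 0.04, against -0.01 over all genes, and it was 0.07 without WT array 1, 0.02 without WT array 4 and 0.02 without HNF6KO array 2.

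**Figure D1:**
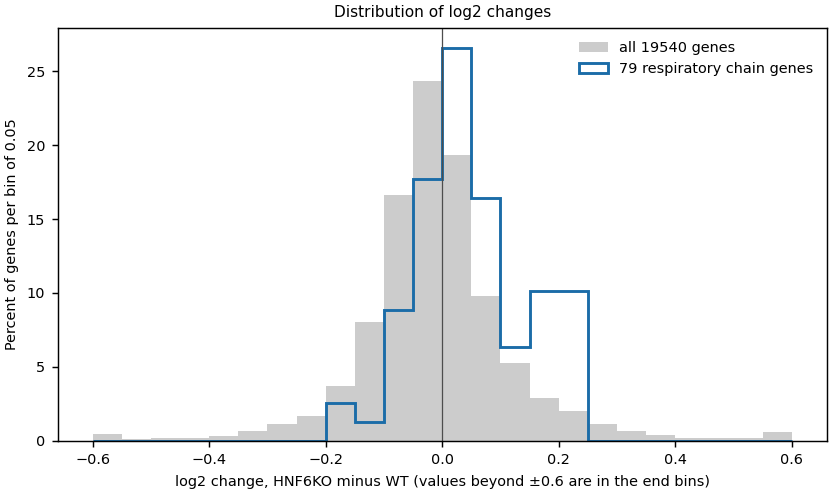
Percent of genes (y axis) per bin of log2 change, HNF6KO minus WT (x axis), for all 19540 genes (grey) and for the 79 respiratory chain genes (blue outline). The outline spans -0.20 to 0.24 and has 55 of its 79 genes above 0, and none of the 79 passed the test.

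**Figure D2:**
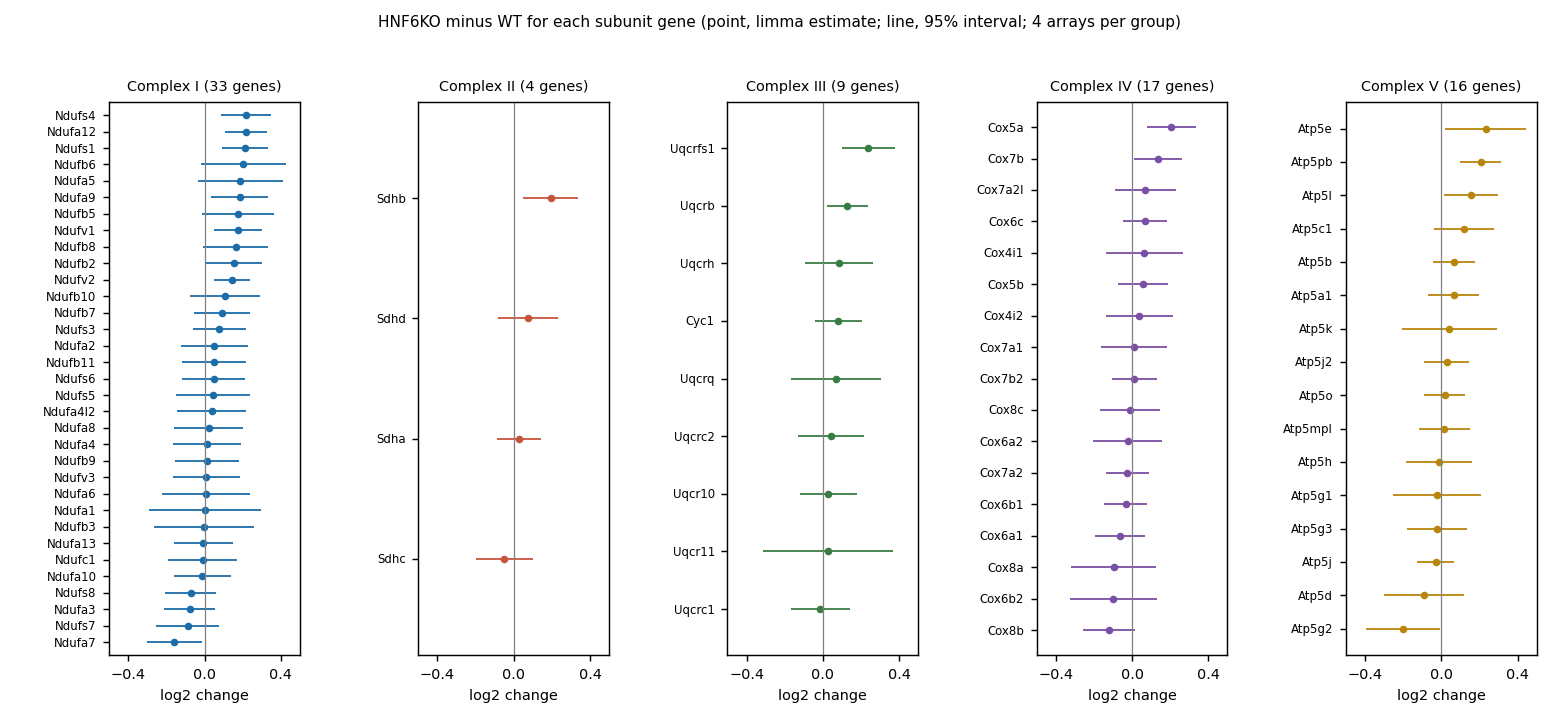
Log2 change, HNF6KO minus WT (x axis), of each subunit gene by complex, with points for the limma estimate and lines for its 95% interval (4 arrays per group). No interval goes beyond -0.39 or 0.44, and 17 of 79 exclude 0 before adjustment for multiple tests.

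The sequences before the transcription starts of these genes are rich in CpG, and some hold the binding letters of factors known to act on respiratory genes. RefSeq promoter windows (GRCm38.p6) were matched for 63 of the 79 genes (68 windows), and the 250 bases before each start were searched on both strands. The median window had 14 CpG and 56.2% G or C, against 6 and 52.4% over all 32851 windows. The NRF1 letters (GCGCA and GCGC parted by 1 base of any kind), bound by nuclear respiratory factor 1, occurred in 17.6% of the subunit genes' windows and in 3.74% of all windows. The ETS letters CCGGAAG, to which GABPA binds, occurred in 17.6% against 6.91%, and the YY1 letters AANATGGC in 8.82% against 3.91%. The NRF1 and ETS letters themselves contain CpG, and the windows compared were not matched for CpG. The part of CpG content in these shares was not tested. Of forms bound by ONECUT factors, ATCGAT occurred in 0 of the 68 windows (0.728% of all) and ATTGATT in 1 (1.47%, against 2.61%). In these windows 25 of 63 genes held at least 1 of the 5 motifs, and no matches overlapped. The share of all genes with at least 1 of the 5 was not computed. A match describes letters only and is not a measured site.

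The windows below show the range of these matches, which are in capitals. Sdha has 3 NRF1 matches, Sdhd has 1 NRF1 and 1 ETS match, Atp5l has 1 ETS match (first in the window) and the only ONECUT match, and Ndufa12, the gene with the smallest p here, has none. They lie at chr13:74350241-74350490 (minus strand), chr9:50603850-50604099 (minus), chr9:44920743-44920992 (minus) and chr10:94198785-94199034 (plus), in that order, and each is printed 5′ to 3′ along its gene.
Sdha: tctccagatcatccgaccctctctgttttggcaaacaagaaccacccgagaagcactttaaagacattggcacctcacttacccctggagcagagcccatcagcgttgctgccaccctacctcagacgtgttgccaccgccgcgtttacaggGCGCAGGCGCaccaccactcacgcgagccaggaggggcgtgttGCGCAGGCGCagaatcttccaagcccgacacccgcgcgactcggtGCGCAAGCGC
Sdhd: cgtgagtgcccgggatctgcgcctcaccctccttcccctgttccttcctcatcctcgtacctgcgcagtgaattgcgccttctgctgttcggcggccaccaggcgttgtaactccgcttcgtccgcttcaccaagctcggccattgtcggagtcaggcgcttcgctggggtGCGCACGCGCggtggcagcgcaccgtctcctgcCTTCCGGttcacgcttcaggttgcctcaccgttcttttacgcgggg
Atp5l: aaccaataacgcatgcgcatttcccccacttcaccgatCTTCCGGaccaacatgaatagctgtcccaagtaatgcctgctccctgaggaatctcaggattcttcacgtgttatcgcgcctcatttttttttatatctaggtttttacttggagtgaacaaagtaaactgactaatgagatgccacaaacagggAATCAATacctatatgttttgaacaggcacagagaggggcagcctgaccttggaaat
Ndufa12: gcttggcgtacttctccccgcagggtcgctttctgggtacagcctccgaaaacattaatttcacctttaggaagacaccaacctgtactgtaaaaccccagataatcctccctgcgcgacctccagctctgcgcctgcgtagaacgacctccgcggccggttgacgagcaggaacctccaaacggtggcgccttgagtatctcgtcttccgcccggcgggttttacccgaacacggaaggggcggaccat

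Complex I, which takes electrons from NADH, is the largest complex, and 7 of its 33 genes (21.2%) had all HNF6KO arrays above all WT arrays. This share was 25% (1 of 4 genes) in complex II, 22.2% (2 of 9) in complex III, 5.88% (1 of 17) in complex IV and 6.25% (1 of 16) in complex V. It was 2.45% over all genes and 5.45% over genes at least as bright as the subunit genes' lower quartile. Of the 33 complex I genes 0 passed and 25 lay above 0. The unadjusted p was under 0.05 for 7 higher genes and 1 lower gene. Over all genes 4.3% were higher and 5.21% lower at that p, and over those similarly bright genes 8.69% and 9.93%. Both pairs of shares are to be set beside such counts in each complex. The median change of complex I was 0.05 (0.022 without WT array 4 and 0.082 without WT array 1). Differences between the complexes were not tested. The 3 core subunits of the NADH-oxidising module were each higher on all 4 HNF6KO arrays than on any WT array. Ndufs1, the largest of these and a carrier of iron-sulfur clusters, had log2 values of 10.32, 10.26, 10.41 and 10.32 in WT (arrays 1 to 4, the order used throughout) and 10.54, 10.46, 10.60 and 10.56 in HNF6KO. The lowest HNF6KO array thus lay just above the highest WT array. The log2 change of Ndufs1 was 0.21 ± 0.05 (SE, n = 4 per group, adjusted p = 0.195). Ndufv1, which binds NADH and FMN, had values of 10.55, 10.54, 10.41 and 10.38 in WT and 10.63, 10.62, 10.64 and 10.71 in HNF6KO. WT arrays 3 and 4 were the low ones, and the change was 0.17 ± 0.06 (adjusted p = 0.331). Ndufv2, its iron-sulfur partner, had the tightest arrays of the 3, at 10.93, 10.93, 10.94 and 10.89 in WT and 11.04, 11.11, 11.07 and 11.05 in HNF6KO. Its change was 0.14 ± 0.04 (adjusted p = 0.282).

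The 7 accessory subunits of the same module lay on both sides of 0. Ndufa12 had values of 10.17, 10.15, 10.09 and 10.14 in WT and 10.30, 10.42, 10.30 and 10.39 in HNF6KO, a change of 0.22 ± 0.05 (adjusted p = 0.150). Ndufs4, a late-assembling subunit whose loss is known to impair complex I in mice, had values of 9.75, 9.70, 9.71 and 9.59 in WT and 9.83, 10.01, 9.90 and 9.87 in HNF6KO. Its change was 0.22 ± 0.06 (adjusted p = 0.232), and the groups of both genes were apart. Ndufa7 was apart in the other direction, at 8.79, 8.96, 8.82 and 8.75 in WT and 8.75, 8.66, 8.72 and 8.56 in HNF6KO. WT array 4 and HNF6KO array 1 met there at the same rounded value, and the change was -0.16 ± 0.06 (adjusted p = 0.477). The other 4 accessory subunits, Ndufa2, Ndufa6, Ndufs6 and Ndufv3, had changes of 0.01 to 0.05.

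In the ubiquinone-reducing module and the membrane arm, which pumps protons, few genes stood out. Ndufa9, at the join of these parts, had values of 10.20, 10.04, 10.24 and 10.20 in WT and 10.28, 10.32, 10.31 and 10.49 in HNF6KO, a change of 0.18 ± 0.07 (adjusted p = 0.399). The iron-sulfur subunits Ndufs7 and Ndufs8 leaned the other way, with changes of -0.09 ± 0.07 and -0.07 ± 0.06. Of 16 accessory genes of the membrane arm, 11 lay above 0 and 1 was higher at an unadjusted p of 0.05. That gene, Ndufb2, had values of 8.87, 8.84, 8.63 and 8.81 in WT and 8.97, 9.02, 8.90 and 8.87 in HNF6KO, a change of 0.16 ± 0.06 (adjusted p = 0.490). WT array 1 and HNF6KO array 4 met at the same rounded value there. Ndufb6 had a change of 0.20 ± 0.10 (adjusted p = 0.573), Ndufa1 one of 7.2e-04 ± 0.13 and Ndufb3, the dimmest of the membrane arm, one of -0.003 ± 0.12. Ndufb9, the brightest probe set of the complex, had means of 12.44 ± 0.12 (SD) in WT and 12.45 ± 0.10 in HNF6KO. Ndufa4 had a change of 0.01 ± 0.08, and the dim Ndufa4l2, known from hypoxic cells, one of 0.04 ± 0.08.

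**Figure D3:**
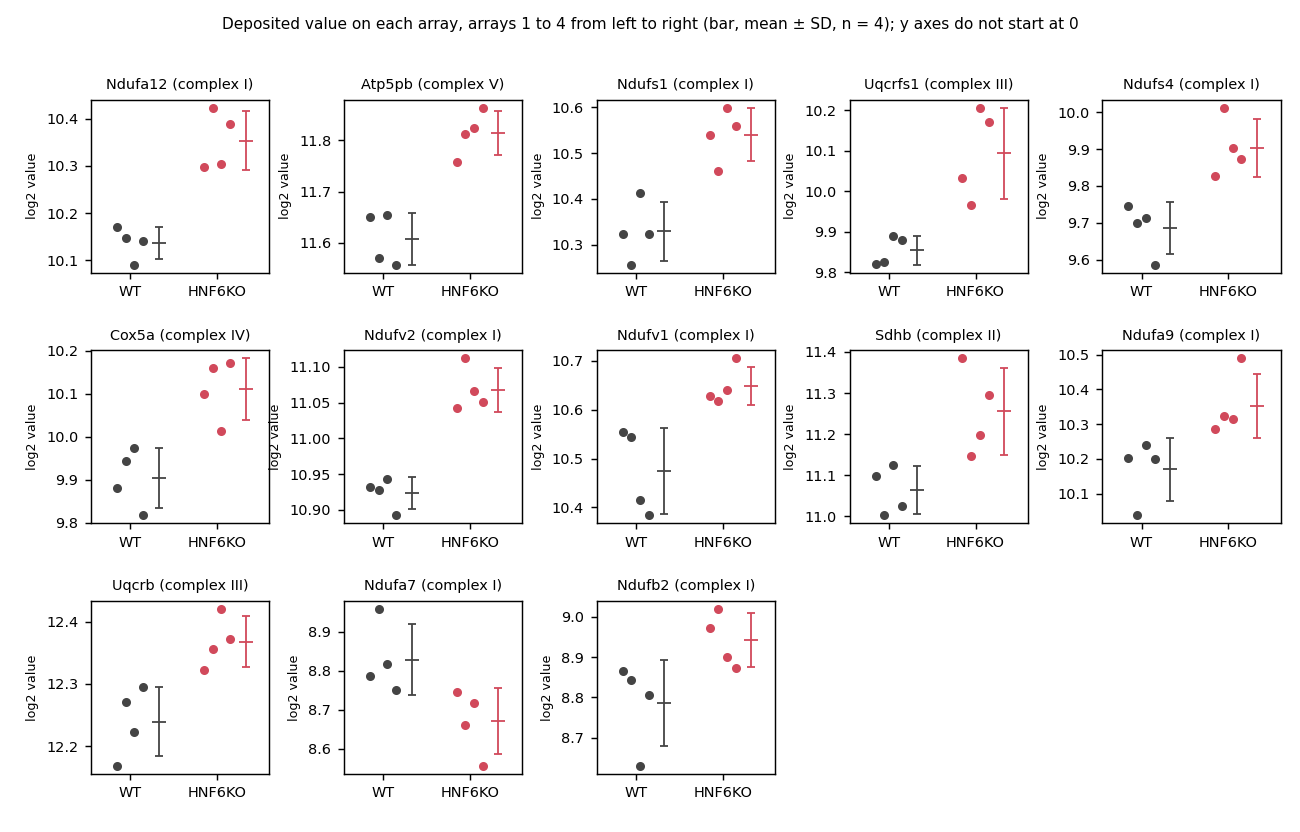
Deposited log2 value (y axis, not starting at 0) of the 13 subunit genes whose WT (black) and HNF6KO (red) arrays did not overlap, with arrays 1 to 4 from left to right and bars for mean ± SD (n = 4). In 12 genes HNF6KO is the higher group and in Ndufa7 the lower, and the largest distance between means is 0.24, in Uqcrfs1.

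Complex II, succinate dehydrogenase, differed in 1 of its 4 genes at an unadjusted p of 0.05 and in 0 after adjustment, with a median change of 0.05 that was -0.003 within arrays 1 and 2, 0.023 without HNF6KO array 4 and 0.098 without HNF6KO array 2. Sdhb, the iron-sulfur subunit, had values of 11.10, 11.00, 11.13 and 11.03 in WT and 11.38, 11.15, 11.20 and 11.29 in HNF6KO. All HNF6KO arrays were above all WT arrays, by little on array 2, and the change was 0.19 ± 0.06 (adjusted p = 0.340). Sdha, the flavoprotein that oxidises succinate, had means of 12.09 ± 0.04 (SD) and 12.12 ± 0.07 in WT and HNF6KO, and a change of 0.03 ± 0.05. The membrane anchors Sdhc and Sdhd had changes of -0.05 ± 0.07 and 0.08 ± 0.07 (adjusted p = 0.891 and 0.815). Neither Sdha nor Sdhd separated the groups. Their promoter windows, printed above, both hold NRF1 letters, and any relation of such letters to the changes was not tested.

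Complex III passes electrons from ubiquinol to cytochrome c. Of its 9 genes 0 passed, 8 lay above 0, and 2 higher genes had an unadjusted p under 0.05. The median was 0.07, and it was 0.023 without HNF6KO array 2, 0.036 without WT array 4 and 0.11 without WT array 1. Uqcrfs1, the Rieske iron-sulfur protein at its active site, had the largest change of all 79 genes. Its values were 9.82, 9.83, 9.89 and 9.88 in WT and 10.03, 9.97, 10.20 and 10.17 in HNF6KO, with arrays 3 and 4 higher than arrays 1 and 2 in both groups. The change was 0.24 ± 0.06 (adjusted p = 0.216), and with array quality weights it passed, at 0.30 and adjusted p = 0.0410. Uqcrb, a ubiquinone-binding subunit, had values of 12.17, 12.27, 12.22 and 12.29 in WT and 12.32, 12.36, 12.42 and 12.37 in HNF6KO, a change of 0.13 ± 0.05 (adjusted p = 0.427). Its other 2 probe sets had changes of 0.15 and 0.12. Cyc1, the cytochrome c1 subunit, had a change of 0.08 ± 0.05 (adjusted p = 0.723), and the core proteins Uqcrc1 and Uqcrc2 had changes of -0.01 ± 0.07 and 0.04 ± 0.08. The small subunit Uqcr10 had a change of 0.03 ± 0.07.

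Complex IV, cytochrome c oxidase, lay close to 0 over its 17 genes, of which 7 are dim isoforms known from other tissues. Of its 17 genes 0 passed, 9 lay above 0, 2 of these with an unadjusted p under 0.05, and the median was 0.01, below 0 in 7 of 20 alternative fits and between -0.013 and 0.027 with 1 array left out. The median was 0.06 over the 9 broadly expressed subunits (5 above 0 and 4 below) and -0.01 over the 7 dim isoforms. With genes below the 40th percentile of level left out, the complex IV median was 0.04. Cox5a, a matrix-side subunit, was the 1 gene here whose groups did not overlap, at 9.88, 9.94, 9.97 and 9.82 in WT and 10.10, 10.16, 10.01 and 10.17 in HNF6KO. Its change was 0.21 ± 0.06 (adjusted p = 0.239), and HNF6KO array 3 lay nearest to WT. Cox7b had values of 11.41, 11.28, 11.30 and 11.24 in WT and 11.46, 11.54, 11.39 and 11.40 in HNF6KO. The groups overlapped through WT array 1, and the change was 0.14 ± 0.06 (adjusted p = 0.485). Its dimmer probe set gave 0.13 (limma unadjusted p = 0.0692).

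Complex IV has subunits that exist as isoforms of different tissues, and no isoform of either kind named here passed. Among the broadly expressed forms, Cox4i1 had a change of 0.07 ± 0.09, Cox6a1 one of -0.06 ± 0.06, Cox6b1 one of -0.03 ± 0.05, Cox7a2 one of -0.02 ± 0.05 and Cox8a one of -0.09 ± 0.10. The 7 forms known from muscle, brown fat, lung or testis (Cox4i2, Cox6a2, Cox6b2, Cox7a1, Cox7b2, Cox8b and Cox8c) were dim, with mean log2 levels of 5.03 to 7.59 where the array medians lay at 6.89 to 6.97. Their changes ran from -0.12 to 0.04, with 3 above 0, 4 below and 0 at an unadjusted p of 0.05. Cox8b, known from heart, muscle and brown fat, had the change of -0.12 ± 0.06 (adjusted p = 0.589), with HNF6KO arrays 3 and 4 at 5.87 and 5.85 below all other arrays. Markers of muscle and brown fat, among them Ucp1, averaged 6.61 to 6.65 in WT and 6.55 to 6.70 in HNF6KO. Cox6c, the brightest probe set of the complex, had a change of 0.07 ± 0.05. Cox7a2l had one of 0.07 ± 0.07 from its brighter probe set and -0.05 from the other.

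Complex V, ATP synthase, had genes on both sides of 0. Of its 16 genes 0 passed, 10 lay above 0, the unadjusted p was under 0.05 for 3 higher genes and 1 lower gene. The median was 0.02, from 3.6e-04 without HNF6KO array 2 to 0.044 without HNF6KO array 3. Atp5pb, the b subunit of the peripheral stalk, had values of 11.65, 11.57, 11.65 and 11.56 in WT and 11.76, 11.81, 11.82 and 11.86 in HNF6KO. The groups were apart, and the change was 0.21 ± 0.05 (adjusted p = 0.159). Its dimmer probe set gave 0.11 with overlapping groups (limma unadjusted p = 0.0755). The other stalk genes, Atp5h, Atp5j and Atp5o, had changes of -0.03 to 0.02. Atp5l, the g subunit in the membrane, had values of 11.26, 11.09, 11.19 and 11.22 in WT and 11.21, 11.40, 11.40 and 11.38 in HNF6KO. HNF6KO array 1 lay within WT and the other 3 above it, a change of 0.16 ± 0.06 (adjusted p = 0.464), and its 6 probe sets gave 0.14 to 0.18.

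In the catalytic head of ATP synthase, the α and β subunits Atp5a1 and Atp5b had changes of 0.07 ± 0.06 and 0.07 ± 0.05. The small ε subunit Atp5e had a larger but more scattered change, at 8.82, 8.95, 8.77 and 8.96 in WT and 9.11, 9.36, 8.92 and 9.04 in HNF6KO. HNF6KO array 3 lay below 2 of the WT arrays, and the change was 0.23 ± 0.09 (adjusted p = 0.469). The c ring, which turns as protons pass, is made from 3 genes that encode the same mature protein, and all 3 lay below 0. Atp5g2 had values of 11.57, 11.21, 11.50 and 11.27 in WT and 11.18, 11.10, 11.22 and 11.25 in HNF6KO, with WT arrays 1 and 3 the high ones. Its change was -0.20 ± 0.09 (adjusted p = 0.511), with -0.19 and -0.20 from its other 2 probe sets. Atp5g1 and Atp5g3 had changes of -0.02 ± 0.10 and -0.02 ± 0.07. Atp5k, the dimmest probe set of the complex, had one of 0.04 ± 0.11. Several of these genes have near-identical copies in the genome, so the probe sets of a gene (13 genes had more than 1, and in 11 all signs were alike) need not be independent.

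Array by array, the subunit genes also differed within each genotype. The median over the 79 genes of the value minus the gene's own mean was 0.04, -0.05, -0.01 and -0.07 in WT and 0.02, 0.05, -0.01 and 0.02 in HNF6KO, for arrays 1 to 4. The groups overlapped, since WT array 1 was above 3 of the HNF6KO arrays. WT array 1 was the highest WT array for 43 of 79 genes (54.4%, against 24.7% of all genes), and HNF6KO array 2 the highest HNF6KO array for 34 (43.0%, against 20.1%). Among the 2567 similarly bright genes these shares were 23.6% and 16.7%. HNF6KO array 2 was the lowest HNF6KO array for 44.3% of those bright genes and for 29.1% of the subunit genes. WT array 1 and HNF6KO array 2 also had the lowest Kupffer cell markers, at 7.63 and 7.71 where the other 6 arrays had 8.22 to 9.35. Their endothelial markers were the lowest as well, at 8.41 and 8.44 where the others had 8.61 to 9.33. Stellate cell markers were low on both too (8.29 and 8.31), as on WT array 2 (8.27). The part of these cells' markers in the subunit genes' values was not tested.

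**Figure D4:**
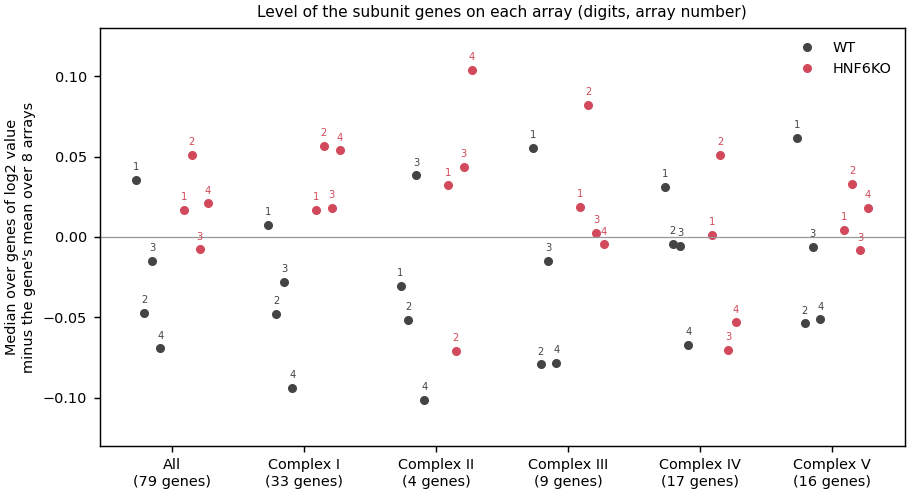
Median over the subunit genes of each array's log2 value minus the gene's mean over the 8 arrays (y axis), for all 79 genes and for each complex (x axis), with WT in black, HNF6KO in red and digits for the array number. Only complex I shows all 4 HNF6KO arrays above all 4 WT arrays, and by little. Its lowest HNF6KO median is 0.017 and its highest WT median 0.007, where the SD within groups is 0.034. In complex IV HNF6KO arrays 3 and 4 lie at -0.07 and -0.05.

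**Figure D5:**
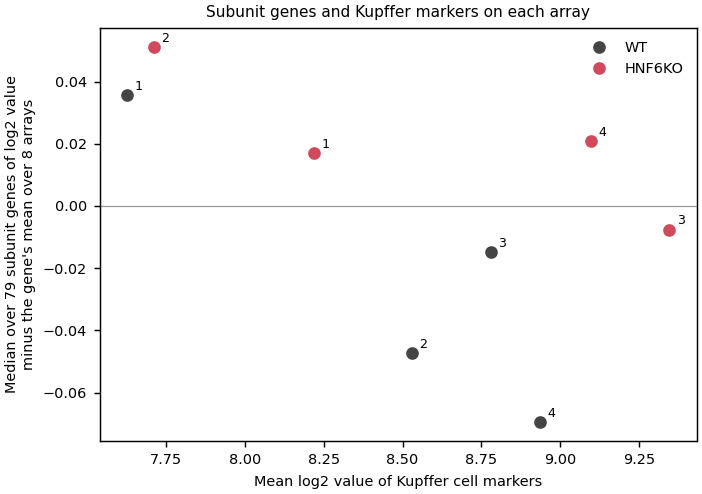
The same median over the 79 subunit genes (y axis) against the mean log2 value of the 9 Kupffer cell markers measured (x axis), 1 point per array with its number, WT in black and HNF6KO in red. WT array 1 and HNF6KO array 2 have the lowest marker means, 7.63 and 7.71, and the highest subunit medians of their groups.

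In 8 lists of other mitochondrial genes 0 genes passed. In their counts, higher and lower mean an unadjusted p under 0.05, which 4.3% and 5.21% of all genes reached. Of mitochondrial DNA's own subunits 2 were measured, and both had small changes above 0. ND3, a complex I subunit, had values of 12.88, 12.90, 12.85 and 12.89 in WT and 12.92, 13.03, 12.97 and 13.01 in HNF6KO, a change of 0.10 ± 0.04 (adjusted p = 0.523) with the groups apart. COX2, a copper-binding subunit of complex IV, had a change of 0.12 ± 0.05 (adjusted p = 0.501). Of 38 measured assembly factors, which build the complexes, 28 lay above 0, 4 were higher (10.5%) and 0 lower, with a median of 0.05. The 2 with the smallest p were the complex I factor Ndufaf7 (0.17 ± 0.06) and the complex III factor Uqcc1 (0.19 ± 0.06). Of 17 electron carriers and coenzyme Q genes, 1 was higher (Coq10b, 0.21 ± 0.06) and 1 lower (Coq10a, -0.19 ± 0.07), or 5.88% each, near the share of all genes, with a median of 0.02.

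The list of the citric acid cycle, which feeds NADH and succinate to the chain, came closest to the threshold. This list also took in genes of pyruvate dehydrogenase and pyruvate carboxylase. Of 18 measured genes 15 lay above 0, 4 were higher (22.2%) and 0 lower, and the median was 0.07. Suclg1, the α subunit of succinyl-CoA ligase, had values of 10.72, 10.68, 10.64 and 10.58 in WT and 10.88, 10.95, 10.87 and 10.91 in HNF6KO, a change of 0.25 ± 0.05 (adjusted p = 0.0891). Its GTP-specific partner Suclg2 had a change of 0.25 ± 0.05 (adjusted p = 0.0961). All HNF6KO arrays of both genes lay above all WT arrays. Of 76 mitochondrial ribosomal protein genes 10 were higher (13.2%) and 3 lower (3.95%), with a median of 0.03. Mrpl23 had a change of 0.39 ± 0.08 (adjusted p = 0.0969) and Dap3 one of 0.25 ± 0.06.

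Regulators of mitochondrial content lay on both sides of 0. Of 19 measured, 10 lay above 0, 2 were higher and 2 lower (10.5% each). The 2 with the smallest p were both lower: the mitochondrial RNA polymerase Polrmt (-0.15 ± 0.04, adjusted p = 0.275) and the coactivator Ppargc1b (-0.36 ± 0.12, adjusted p = 0.331). Of genes chosen for their known role after their values were seen, Ppargc1a, the coactivator PGC-1α, had overlapping values, of 8.55 to 9.15 in WT and 8.90 to 9.79 in HNF6KO. Its change was 0.44 ± 0.20 (adjusted p = 0.538), with HNF6KO array 2 the highest. Tfam, which packages mitochondrial DNA and helps start its transcription, had a change of 0.22 ± 0.09 (adjusted p = 0.496). Nrf1 and Gabpa, whose binding letters were counted in the promoters, had changes of -0.08 ± 0.09 and -0.01 ± 0.07. Import and cristae genes (25 measured, median 0.03) had 2 higher (8%), the chaperones Hspd1 (0.18 ± 0.05) and Hspe1 (0.22 ± 0.07). ATP export genes (13 measured, median 0.05) had 2 higher (15.4%), the outer membrane channels Vdac1 (0.15 ± 0.06) and Vdac3 (0.12 ± 0.05).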

How the data were processed

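The authors deposited 1 table of values for 22725 probe sets on 8 arrays, read here as log2 expression from their range (3.69 to 14.1). The sources used here do not name the log base or how arrays were normalized and summarised. The platform annotation gave 1 symbol to 21113 probe sets, several to 43 and none to 1569, and 19540 genes were tested. No value was missing or changed. The genotypes were compared with limma 3.58.1 (lmFit and eBayes, in R 4.3.3), p-values were adjusted over all genes by Benjamini-Hochberg, and the threshold was 0.05. SE and 95% intervals are moderated. The fit was tested on simulated data, in which every planted change was larger in size than that of any subunit gene. The members and lists were chosen with earlier results of these data known, so list counts and medians are descriptions. Named were all of complex II, the 3 genes with the smallest p, the brightest and the dimmest of the other complexes, preset isoforms, and 2 genes per list. Genes named beyond this rule, such as Ndufv1, Ndufv2, Ndufa7, Ndufa9 and Ndufb2, were chosen after their values were seen. Alternatives were 3 normalizations, a filter at the 40th percentile, 2 variance models, 2 probe set rules, 2 blocks, 2 subsets of arrays, each array left out, and 2 thresholds.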

Additional observations from a re-analysis of the deposited data

Results flagged for a closer look

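An outlying array was looked for in each group of 4 for the 43 subunit genes named by the rule or by an unadjusted p under 0.05. In 2 of 86 groups 1 array stood apart, its gap to the next array being a larger share of the range than Dixon's 95% critical value, which chance passes in about 5% of groups. Atp5l was at 11.21 on HNF6KO array 1, while the other HNF6KO arrays lay at 11.38 to 11.40. Cox7a1 was at 7.11 on WT array 1, while the other WT arrays lay at 6.89 to 6.92.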

How the results depend on the processing

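The count of 0 subunit genes past the threshold held in 19 of 20 alternative fits, and was 1 (Uqcrfs1) with array quality weights. At an adjusted p of 0.1 it was 0 in the values reported, 5 with array quality weights, 4 with a term for arrays 1 and 2 against arrays 3 and 4 (smallest adjusted p = 0.0537), 2 with cyclic loess, 2 with quantile normalization and 0 in the other fits. At an unadjusted p of 0.05 it was 17. Of 813 values of named genes under alternatives, 812 kept their side of the threshold, and 50 in 18 genes had the opposite sign without passing. All 17 genes under an unadjusted p of 0.05 kept their sign in each of the 19 fits that give 1 value per gene. Their unadjusted p stayed under 0.05 in all 19 for Ndufa12, Ndufs1 and Uqcrfs1, in 13 to 18 for 8 genes, in 11 for Atp5e and Atp5l, in 10 for Ndufa7, and in 7 for Atp5g2, Cox7b and Ndufb2. The median over all subunit genes stayed above 0 (0.02 to 0.07), and leaving out 1 array in turn moved the complex I median between 0.022 and 0.082, the latter without WT array 1. The complex II median was below 0 in 1 fit and that of complex IV in 7. The count of all genes past the threshold was 16 without WT array 2 and 245 with the term for arrays 1 and 2 against arrays 3 and 4, compared with 78. Same-numbered arrays did not meet the criterion for pairs (every correlation over 0.1), since deviations from the group means had correlations of 0.44, 0.17, 0.51 and 0.02 for numbers 1 to 4, and WT array 2 correlated best with HNF6KO array 1 (0.35). The arrays did split by number, with WT to HNF6KO correlations of 0.02 to 0.51 within arrays 1 and 2 or within arrays 3 and 4, and of -0.50 to 0.02 across them. Whether this split marks a batch is not given by the labels. With the replicate block 0 subunit genes and 125 genes in all passed. The signal of dim probe sets limits the isoforms of other tissues.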
